A study of Homo sapiens with 6 samples.

Results

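The 9 genes SNAI1, SNAI2, SNAI3, ZEB1, ZEB2, TWIST1, TWIST2, TCF3 and TCF4 encode transcription factors linked to epithelial-mesenchymal transition (EMT). EMT is the switch by which cells give up epithelial junctions for a migratory state. The genes were chosen by name, and all 9 were found among the 58884 genes of the deposited table. Messenger RNA had been sequenced from HEK293FT, a fast-growing line of human embryonic kidney origin that carries the SV40 large T antigen. The cultures had received for 72 h supernatant that held secreted ISLR (3 libraries, labelled ISLR), or control supernatant made with the empty vector (3 libraries, labelled NC). The ISLR protein is secreted, joins an immunoglobulin-like domain to leucine-rich repeats, and is known from stromal cells. Both groups share the cell line, the medium with serum and the 72 h of exposure. The labels do not say which cells made the supernatant or whether the 3 libraries of a group were separate cultures, so p-values rest on no more than how these 6 libraries varied, and that variation may be technical.

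Snail, ZEB and Twist factors are DNA-binding repressors or regulators that recognise E-boxes, short DNA motifs of the form CANNTG. SNAI1, SNAI2, SNAI3, ZEB1 and ZEB2 bind them through zinc fingers. SNAI1, SNAI2, ZEB1 and ZEB2 recruit corepressors such as CtBP and histone deacetylases, and are known for silencing the E-cadherin gene CDH1. TWIST1 and TWIST2 are basic helix-loop-helix (bHLH) proteins that pair with E proteins. TCF3 (which encodes E12 and E47) and TCF4 (which encodes E2-2 and is distinct from the Wnt effector TCF7L2) are such E proteins. ID proteins lack the DNA-binding region and hold E proteins in inactive pairs.

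The transcript of ISLR itself went against the labels. ISLR was listed at 0, 0.02 and 0 TPM (a share of all transcripts, corrected for gene length) in the 3 labelled-ISLR libraries, while the 3 labelled-NC libraries held 510.32, 555.37 and 535.06 TPM of it. The groups are therefore called by their labels, and each direction below would be the opposite one if the labels of the columns had been exchanged. Whichever way the labels run, the cultures are described as having received supernatant. Where ISLR transcript at this level came from was not tested. Pearson correlations of log2(TPM + 1) lay at 0.98 to 0.984 for libraries of the same group and at 0.963 to 0.972 for libraries of different groups. Of 13869 genes tested with limma, 45.9% had a Benjamini-Hochberg adjusted p under 0.05, 38.5% higher and 7.38% lower in the labelled-ISLR libraries, and the groups did not overlap for 56.8%. The median log2 difference of these genes was 0.22 as deposited. After median-of-ratios scaling it was 0, and 38.6% of genes were called, 18.2% higher and 20.4% lower. Differences are therefore given as deposited and for many genes also after scaling, and the scaled value is relative to the common shift. A log2 difference with no scale named is as deposited and need not hold after scaling. TPM values hold no depth, so the depth of the libraries is unknown.

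Markers fixed for the cell line were present in part. VIM averaged 1245.4 TPM in the labelled-ISLR libraries and 1128.2 TPM in labelled-NC libraries, and NEFM, NEFL, KRT8 and KRT18 were all above 25 TPM in every library. Of 10 such markers 8 were tested, with 4 higher and none lower as deposited (4 of 8 called, beside 45.9% of all genes) and none higher and 3 lower after scaling (37.5%, beside 38.6%). The kidney marker PAX8 did not exceed 0.05 TPM. Of 8 fibroblast markers, 6 stayed under 1 TPM in all 6 libraries and THY1 was listed at 0 in each. The 2 tested, COL1A1 and COL3A1, which encode fibrillar collagens, did not pass (limma adjusted p = 0.845 and 0.277). The summed level of the list was 13.7 to 14.8 TPM in the labelled-ISLR libraries and 11.8 to 16.9 TPM in labelled-NC libraries. All 4 endothelial markers were under 1 TPM in all libraries, at a summed 0.12 to 0.25 TPM in the labelled-ISLR libraries and 0.16 to 0.22 TPM in labelled-NC libraries. Of 4 immune markers only CD68 exceeded 1 TPM, and the summed level was 12.1 to 12.4 TPM in the labelled-ISLR libraries and 7.36 to 8.17 TPM in labelled-NC libraries. The defining immune gene PTPRC reached at most 0.14 TPM, and CD68, a lysosomal protein that many cells express, passed the limma test (log2 difference 0.57, adjusted p = 0.00119). The part of this difference in the results below was not tested. In bulk RNA a change in the share of cells that express a gene and a change in the RNA per cell cannot be told apart.

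The comparison of the groups asked which of the 9 factors differed between cells given the supernatants. SNAI2, TWIST2 and ZEB1 were higher and SNAI1 was lower in the labelled-ISLR libraries, with mean TPM at 1.78, 1.87, 1.71 and 0.681 times the mean of labelled-NC libraries (n = 3 each). SNAI3, ZEB2, TWIST1, TCF3 and TCF4 did not pass the test. All 9 genes passed the filter of at least 1 TPM in at least 3 libraries, TCF4 with values on either side of 1 TPM in both groups. The 4 calls are 44.4% of the 9 genes, beside 45.9% of all genes tested, so the number of calls does not set these factors apart. The 3 higher genes compare with a background of 38.5% and the 1 lower gene with one of 7.38%. After scaling, 3 of 9 genes were called, 2 higher and 1 lower, beside 38.6% of all genes (18.2% higher and 20.4% lower). In the authors' deposited table the same 4 genes had an adjusted p under 0.05, beside 51.2% of the genes tested here, and none of the 9 was marked significant there. For genes around the 9, named below, the 2 comparisons did not always give the same call. HAND1, CDH2, PRKD1 and FBXO11 passed limma as deposited, with authors' adjusted p of 0.585, 0.653, 0.763 and 0.522. ID1, KLF5 and EPCAM did not pass limma as deposited, with authors' adjusted p of 0.00106, 0.00111 and 0.00185. Others, such as SOX4 and DSP, passed both.

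**Figure D1:**
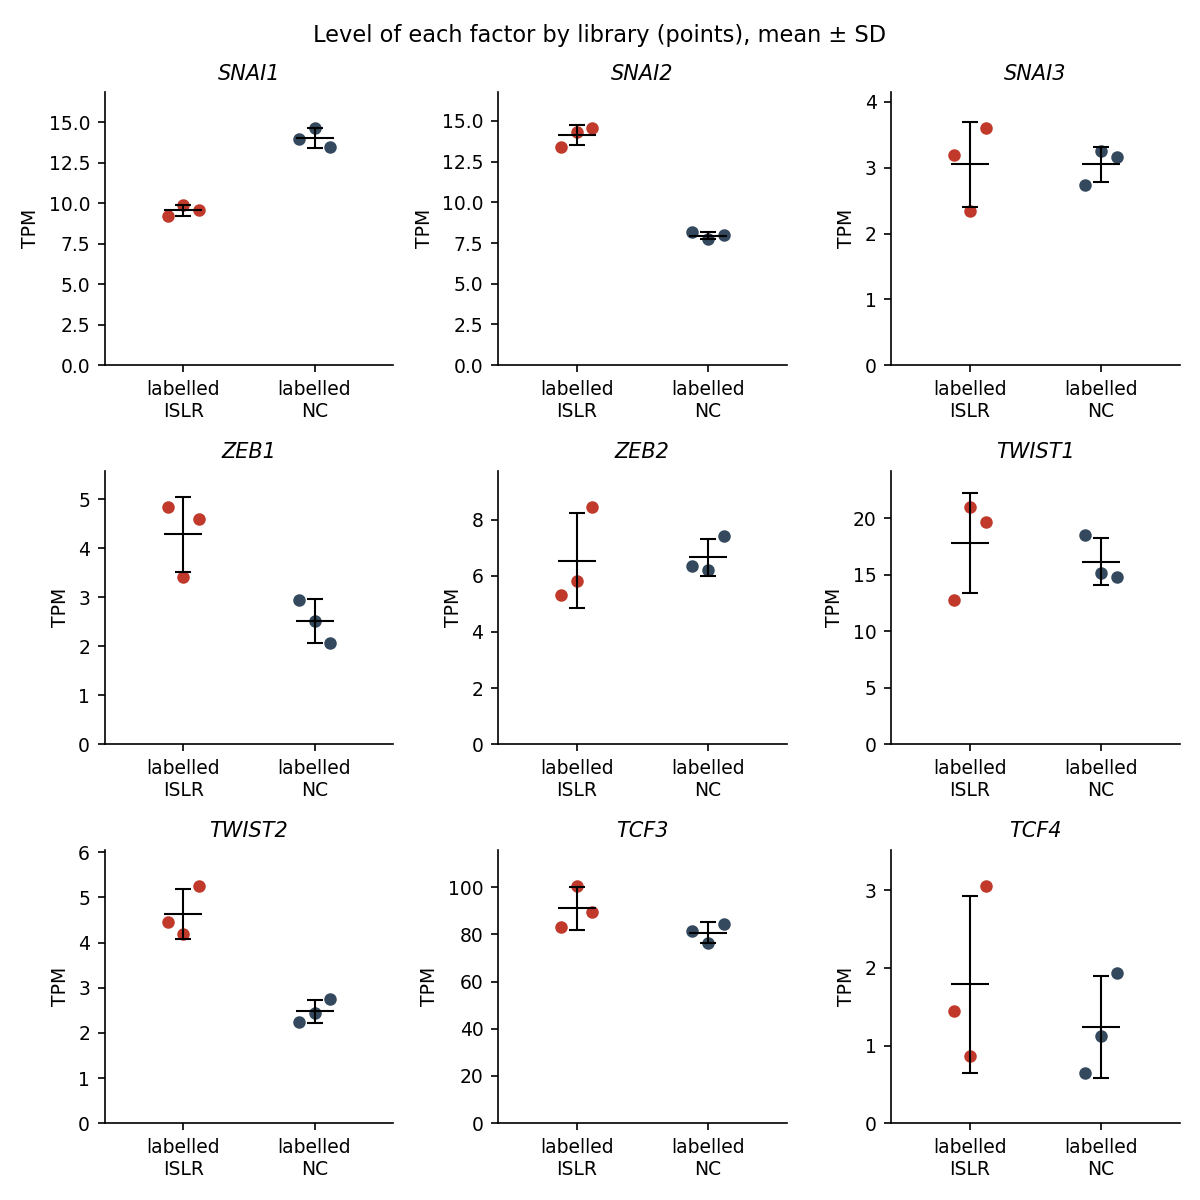
TPM of each of the 9 factors (linear axis from 0) in the 3 labelled-ISLR libraries, left, and the 3 labelled-NC libraries, right, with the mean and SD as bars. The groups do not overlap for SNAI1, SNAI2, ZEB1 and TWIST2 and overlap for the other 5 genes. Over all tested genes the groups do not overlap for 56.8%, so separation does not set these factors apart.

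Within the Snail family the 2 leading genes changed places. SNAI1 (ENSG00000124216.3, chromosome 20 at 49982999 to 49988886, plus strand) encodes Snail, a labile repressor and early actor in EMT. It stood at 9.22, 9.88 and 9.62 TPM in the labelled-ISLR libraries, against 13.99, 14.68 and 13.48 TPM in labelled-NC libraries. All 3 labelled-ISLR libraries lay below all 3 labelled NC, with means of 9.57 ± 0.332 TPM in the labelled-ISLR libraries and 14.1 ± 0.602 TPM in labelled-NC libraries (SD, n = 3 each). The difference in log2(TPM + 1) was -0.51 as deposited (95% interval -0.68 to -0.34, limma adjusted p = 0.0015) and -0.74 after scaling (limma adjusted p = 0.000414).

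SNAI2 (ENSG00000019549.11, chromosome 8 at 48917604 to 48921740, minus strand) encodes Slug, the relative of Snail known from neural crest and from cells that keep a mesenchymal state. It stood at 13.43, 14.35 and 14.59 TPM in the labelled-ISLR libraries, against 8.15, 7.73 and 7.99 TPM in labelled-NC libraries. The groups did not overlap, and the gap of more than 5 TPM between them was many times the spread within either (SD 0.612 TPM in the labelled-ISLR libraries and 0.212 TPM in labelled-NC libraries). The log2 difference was 0.76 as deposited (95% interval 0.58 to 0.93, limma adjusted p = 0.000391) and 0.53 after scaling (limma adjusted p = 0.00118). It had the smallest p of the 9 genes as deposited.

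SNAI3 (ENSG00000185669.5, chromosome 16 at 88677682 to 88686493, minus strand) encodes the least studied member of the family. It stood at 3.19, 2.35 and 3.61 TPM in the labelled-ISLR libraries, against 2.74, 3.25 and 3.16 TPM in labelled-NC libraries. The groups overlapped fully, and the log2 difference was -0.01 as deposited, with a 95% interval of -0.36 to 0.34 (limma adjusted p = 0.961). A change of the size seen for SNAI2 lies outside that interval.

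Because a ratio between 2 genes of a library does not depend on scaling between libraries, the balance within each family was also taken. Such a ratio can still depend on gene length. The median log2 difference was 0.06 for tested genes of 1053 to 1761 nt, a range that holds SNAI1. It was 0.23 for those of 2766 to 3342 nt, which holds SNAI2. The part of gene length in the ratios was not tested. SNAI2 had 1.46, 1.45 and 1.52 times the TPM of SNAI1 in the labelled-ISLR libraries, against 0.583, 0.527 and 0.593 times in labelled-NC libraries. The ratio was thus 2.6-fold higher in the labelled-ISLR libraries, and its direction relative to 1 differed between the groups in every library. SNAI2 made up 52.8 ± 1.05% of the summed Snail family TPM in the labelled-ISLR libraries and 31.8 ± 1.44% in labelled-NC libraries, while SNAI1 made up 35.8 ± 1.3% in the labelled-ISLR libraries and 56.1 ± 1.25% in labelled-NC libraries (SD, n = 3 each). The summed family level itself was 25.8, 26.6 and 27.8 TPM in the labelled-ISLR libraries, against 24.9, 25.7 and 24.6 TPM in labelled-NC libraries. With 3 libraries against 3, the smallest p that an exact two-sided permutation test allows is 0.1, which the SNAI2 to SNAI1 ratio reached (0.1 after adjustment over 5 ratios). The ratios were chosen after the values had been seen, and in the Snail, ZEB and Twist families the gene called higher was put on top, so that their direction was fixed by the choice. SNAI2 was higher and SNAI1 lower in every labelled-ISLR library, so the separation and the p of their ratio followed from the 2 genes.

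The ZEB genes gave a less firm picture. ZEB1 (ENSG00000148516.21, chromosome 10 at 31318495 to 31529814, plus strand) stood at 4.85, 3.41 and 4.60 TPM in the labelled-ISLR libraries, against 2.95, 2.52 and 2.06 TPM in labelled-NC libraries. The groups did not overlap, but the lowest library labelled ISLR came close to the highest labelled NC. The log2 difference was 0.59 as deposited (95% interval 0.22 to 0.96, limma adjusted p = 0.0195) and 0.40 after scaling, where the call was lost (limma adjusted p = 0.0876). It was also lost without labelled ISLR 1 or 3 or labelled NC 3 (limma adjusted p = 0.0636, 0.0648 and 0.0565). The median log2 difference of tested genes of 5667 to 7343 nt, a range that holds the 6267 nt of ZEB1, was 0.32, and with scaling and the trend on gene length removed ZEB1 gave 0.30 (limma adjusted p = 0.176).

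ZEB2 (ENSG00000169554.19, chromosome 2 at 144364364 to 144524583, minus strand), also known as SIP1, stood at 5.33, 5.80 and 8.46 TPM in the labelled-ISLR libraries, against 6.34, 6.20 and 7.42 TPM in labelled-NC libraries. The labelled-ISLR libraries lay on either side of labelled-NC libraries, and the log2 difference was -0.04 as deposited (95% interval -0.43 to 0.34, limma adjusted p = 0.849). ZEB1 had 0.91, 0.588 and 0.544 times the TPM of ZEB2 in the labelled-ISLR libraries, against 0.465, 0.406 and 0.278 times in labelled-NC libraries. ZEB2 was the more abundant of the pair in all 6 libraries, and the ratio was 1.77-fold higher in labelled-ISLR libraries, without overlap (exact permutation p = 0.1, the smallest possible, and 0.1 adjusted over 5 ratios).

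ZEB1-AS1 (ENSG00000237036.4), a long non-coding RNA transcribed from the opposite strand at the ZEB1 start, shares 1953 bases of the genome with the ZEB1 gene. It stood at 8.10, 6.04 and 7.50 TPM in the labelled-ISLR libraries, against 3.51, 3.48 and 4.10 TPM in labelled-NC libraries. The groups did not overlap, and the log2 difference was 0.80 as deposited (limma adjusted p = 0.00236) and 0.59 after scaling (limma adjusted p = 0.0102). No source used here states a strand setting, so it is unknown whether reads of ZEB1 and ZEB1-AS1 were told apart in the shared stretch. ZEB2-AS1, the antisense partner of ZEB2, reached at most 0.93 TPM and was not tested. SNAI3-AS1 reached at most 1.2 TPM, and no other gene that overlaps 1 of the 9 exceeded 0.17 TPM where it had a value.

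Some of the 9 genes carry sequences tied to their known regulation, shown here because ZEB1 and its antisense neighbour were both called higher as deposited and because the ZEB genes differ from the others in their 3' UTRs. The RefSeq table of 300-base windows around transcription starts (250 bases before to 50 after, build GRCh38.p14) held windows for 5 of the 9 genes: ZEB1, ZEB2, TWIST2, TCF3 and TCF4. They were searched for CAGGTG, the E-box preferred by Snail and ZEB factors, on either strand (CACCTG is its reverse complement, and the matches do not overlap). Of all 35116 windows in the table, 20.6% held it. Among the 9 genes it was found in 2 of 7 windows of ZEB1 and in none of those of ZEB2, TWIST2, TCF3 or TCF4. A ZEB1 window on the plus strand at chr10:31318966-31319265 held 3 matches, in capitals below, and 0.635% of all windows hold at least 3. This window was picked for its count, so that share is not the chance of finding such a window among those searched. It shares 220 bases with a start window of ZEB1-AS1 on the other strand. The window of TWIST2, plus strand at chr2:238847835-238848134, is printed beside it as one with no match. A match describes letters only, and binding was not measured.
ZEB1 window: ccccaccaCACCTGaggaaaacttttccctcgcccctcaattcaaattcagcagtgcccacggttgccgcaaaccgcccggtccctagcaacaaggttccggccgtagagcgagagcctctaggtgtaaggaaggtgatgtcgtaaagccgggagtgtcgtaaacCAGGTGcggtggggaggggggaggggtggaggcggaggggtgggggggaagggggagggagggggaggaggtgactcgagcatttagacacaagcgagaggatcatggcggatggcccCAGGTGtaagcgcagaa
TWIST2 window: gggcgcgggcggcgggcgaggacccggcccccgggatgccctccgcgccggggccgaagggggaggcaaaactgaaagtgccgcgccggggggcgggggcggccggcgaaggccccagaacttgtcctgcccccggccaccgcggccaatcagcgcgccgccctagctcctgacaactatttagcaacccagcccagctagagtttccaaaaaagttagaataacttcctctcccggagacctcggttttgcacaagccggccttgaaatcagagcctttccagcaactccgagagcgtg

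ZEB1 and ZEB2 are the textbook targets of the miR-200 family, small RNAs of epithelial cells. The mature sequences (RefSeq, GRCh38.p14) fall into 2 seed groups, with the seed (bases 2 to 8) in capitals.
hsa-miR-200b-3p: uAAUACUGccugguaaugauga
hsa-miR-200c-3p: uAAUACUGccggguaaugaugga
hsa-miR-429: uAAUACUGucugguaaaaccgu
hsa-miR-200a-3p: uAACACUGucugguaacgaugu
hsa-miR-141-3p: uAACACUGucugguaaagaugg
The letters that pair with these seeds, CAGTATT and CAGTGTT, were counted in the longest annotated 3' UTR of each gene (GENCODE 29, GRCh38). The ZEB1 3' UTR of 2552 nt held 6 and 3 of them, and the ZEB2 3' UTR of 5373 nt held 5 and 4. TCF4 held 3 in 5707 nt and SNAI2 held 1 in 1206 nt, while SNAI1, SNAI3, TWIST1, TWIST2 and TCF3 held none. At least 1 match was present in 28.3% of 19137 genes, in 46.5% of the 2388 genes whose 3' UTR is within 20% of the length of that of ZEB1, and in 72.2% of the 1118 genes within 20% of that of ZEB2. A match from each ZEB gene is shown with the paired letters in capitals, for ZEB1 on the plus strand at chr10:31527622-31527650 and for ZEB2 on the minus strand at chr2:144388979-144389007.
ZEB1 site: ttttatcttatCAGTATTatcactcttat
ZEB2 site: ctacaatgcatCAGTATTatgattcctct
The miRNAs themselves were not measured. MIR200CHG and MIR205HG, the host transcripts of miR-200c with miR-141 and of miR-205, were listed at 0 in all 6 libraries.

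**Figure D2:**
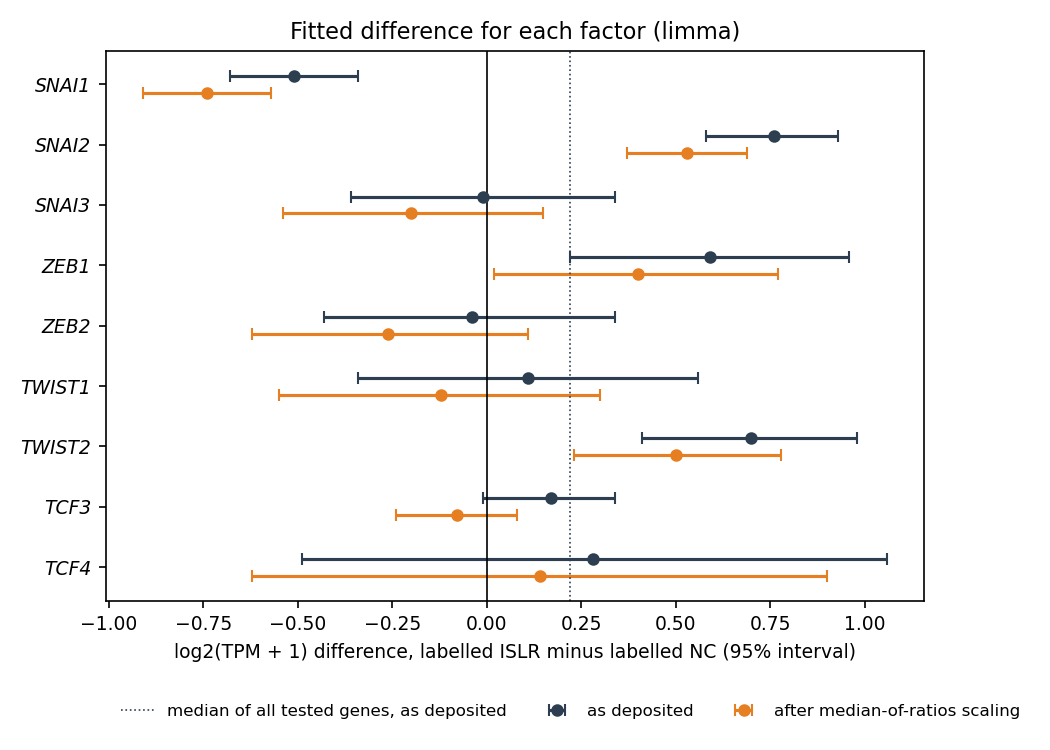
Fitted log2(TPM + 1) difference of each factor, labelled ISLR minus labelled NC, with 95% intervals, as deposited and after median-of-ratios scaling; the dotted line marks the median of all tested genes as deposited (0.22). SNAI1 lies below 0 and SNAI2 and TWIST2 above 0 on both scales, while the interval of ZEB1 starts at 0.22 as deposited and at 0.02 after scaling.

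TWIST1 and TWIST2 encode bHLH factors of mesoderm and neural crest with closely related proteins. TWIST2 (ENSG00000233608.3, chromosome 2 at 238848032 to 238910543, plus strand) stood at 4.46, 4.18 and 5.26 TPM in the labelled-ISLR libraries, against 2.24, 2.44 and 2.74 TPM in labelled-NC libraries. Each labelled-ISLR library was above each labelled NC, and the log2 difference was 0.70 as deposited (95% interval 0.41 to 0.98, limma adjusted p = 0.00354) and 0.50 after scaling (limma adjusted p = 0.0138). TWIST1 (ENSG00000122691.12, chromosome 7 at 19020991 to 19117672, minus strand) was the more abundant of the pair. It stood at 12.71, 21.01 and 19.65 TPM in the labelled-ISLR libraries, against 18.52, 15.11 and 14.75 TPM in labelled-NC libraries. Labelled ISLR 1 was the lowest of all 6 and labelled ISLR 2 the highest, and the log2 difference was 0.11 as deposited (95% interval -0.34 to 0.56, limma adjusted p = 0.661) and -0.12 after scaling.

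TWIST2 had 0.351, 0.199 and 0.268 times the TPM of TWIST1 in the labelled-ISLR libraries, against 0.121, 0.161 and 0.186 times in labelled-NC libraries. The groups did not overlap, by a narrow margin, and the ratio was 1.73-fold higher in the labelled-ISLR libraries (exact permutation p = 0.1, the smallest possible, and 0.1 adjusted over 5 ratios). TWIST2 made up 21.2 ± 4.69% of the TPM of the pair in the labelled-ISLR libraries and 13.5 ± 2.47% in labelled-NC libraries (SD, n = 3 each).

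**Figure D3:**
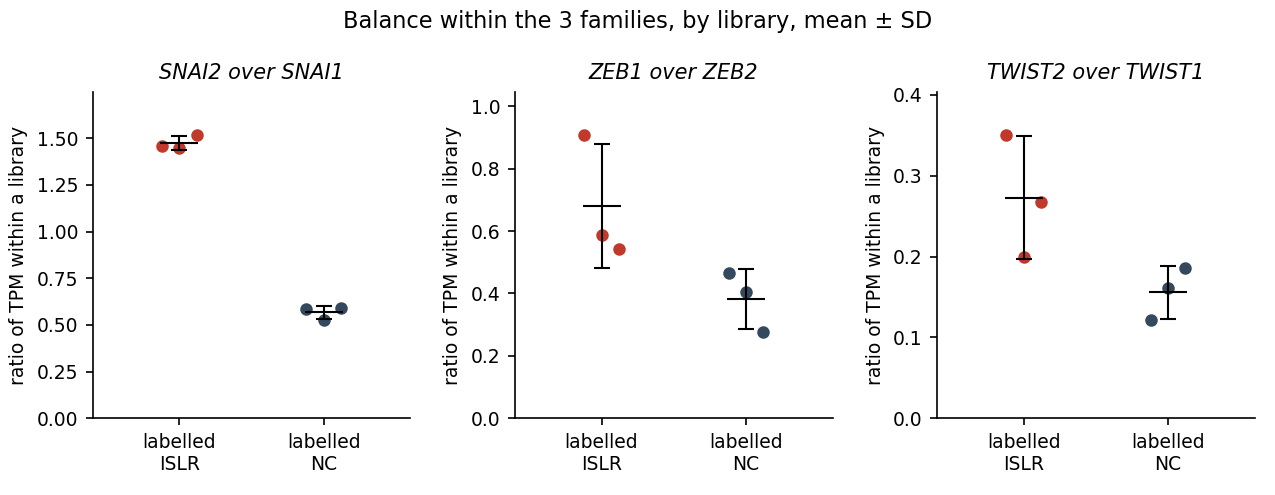
Ratio of TPM between 2 genes of a family within each library (axis from 0), for SNAI2 over SNAI1, ZEB1 over ZEB2 and TWIST2 over TWIST1, with the mean and SD of the 3 labelled-ISLR libraries, left, and labelled NC, right. The SNAI2 to SNAI1 ratio lies between 1.45 and 1.52 in the labelled-ISLR libraries and between 0.527 and 0.593 in labelled-NC libraries, and the other 2 ratios are more spread.

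The E proteins showed no difference that passed. TCF3 (ENSG00000071564.14, chromosome 19 at 1609290 to 1652605, minus strand) was by far the most abundant of the 9 factors, with 59.6 ± 2.81% of their summed TPM in the labelled-ISLR libraries and 59.9 ± 1.2% in labelled-NC libraries (SD, n = 3 each). It stood at 82.98, 100.62 and 89.28 TPM in the labelled-ISLR libraries, against 81.55, 76.14 and 84.55 TPM in labelled-NC libraries. The groups overlapped, and the log2 difference was 0.17 as deposited (95% interval -0.01 to 0.34, limma adjusted p = 0.112) and -0.08 after scaling. Without labelled ISLR 1 it passed as deposited (0.23, limma adjusted p = 0.0447). TCF4 (ENSG00000196628.16, chromosome 18 at 55222331 to 55664787, minus strand) stood at 1.45, 0.86 and 3.06 TPM in the labelled-ISLR libraries, against 0.65, 1.12 and 1.94 TPM in labelled-NC libraries. It was the lowest and most variable of the 9 genes, and the 95% interval of its log2 difference, -0.49 to 1.06, includes the difference seen for SNAI2 (limma adjusted p = 0.515).

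In the labelled-ISLR libraries the order of mean TPM was TCF3, TWIST1, SNAI2, SNAI1, ZEB2, TWIST2, ZEB1, SNAI3 and TCF4. In labelled-NC libraries it was TCF3, TWIST1, SNAI1, SNAI2, ZEB2, SNAI3, ZEB1, TWIST2 and TCF4. Neighbours whose library values overlapped were TWIST1 with SNAI2, TWIST2 with ZEB1, ZEB1 with SNAI3 and SNAI3 with TCF4 in the labelled-ISLR libraries. In labelled-NC libraries only SNAI3 with ZEB1 and ZEB1 with TWIST2 overlapped. TCF3 stood apart from TWIST1 in both groups, at 91.0 ± 8.94 against 17.8 ± 4.45 TPM in the labelled-ISLR libraries and 80.7 ± 4.26 against 16.1 ± 2.08 TPM in labelled-NC libraries.

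By Pearson correlation of log2(TPM + 1) over the 6 libraries, the genes most like SNAI2 among 9169 compared were CHMP1A, a subunit of the membrane-remodelling ESCRT machinery, B4GALT1, a galactosyltransferase, and SMCR8, a partner of C9orf72 (r = 0.999 each). CHMP1A averaged 58.6 TPM in the labelled-ISLR libraries and 42.0 TPM in labelled-NC libraries. Of the genes compared, 396 had an r of at least 0.99, so these 3 genes are the top of a long list of genes with about the same pattern.

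The ID genes, whose products restrain E proteins, went in different directions. Of the 4 genes, 3 were called as deposited (75%, beside 45.9% of all genes) and 2 after scaling (50%, beside 38.6%). ID4 rose and ID3 fell on both scales. ID4 stood at 19.01, 22.29 and 20.26 TPM in the labelled-ISLR libraries, against 12.22, 11.79 and 12.24 TPM in labelled-NC libraries (log2 difference 0.72, limma adjusted p = 0.000528, and 0.48 after scaling). ID3 stood at 69.98, 66.35 and 67.21 TPM in the labelled-ISLR libraries, against 89.93, 101.48 and 90.42 TPM in labelled-NC libraries (-0.46, limma adjusted p = 0.000878, and -0.71 after scaling). ID2 passed as deposited (0.23, limma adjusted p = 0.0101) but gave -0.01 after scaling (limma adjusted p = 0.874). ID1 did not pass (-0.13, limma adjusted p = 0.487, and -0.36 after scaling, limma adjusted p = 0.0678).

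Summed over ID1 to ID4, the level was 173, 180 and 179 TPM in the labelled-ISLR libraries, against 178, 193 and 185 TPM in labelled-NC libraries. The sum for TCF3, TCF4 and their relative TCF12 was 89.6, 106 and 97.8 TPM in the labelled-ISLR libraries, against 86.4, 82.7 and 89.8 TPM in labelled-NC libraries. The sums overlapped between groups, whereas their ratio, ID over E protein, was 1.82 ± 0.119 in the labelled-ISLR libraries and 2.15 ± 0.158 in labelled-NC libraries without overlap (SD, n = 3 each, exact permutation p = 0.1, the smallest possible, and 0.1 adjusted over 5 ratios). The median log2 difference was -0.02 for tested genes of 81 to 1052 nt, which holds the 950 nt of ID3. It was 0.29 for those of 4688 to 5665 nt, which holds the 4743 nt of TCF3. The part of gene length in this ratio was not tested. The fifth ratio, ID4 over ID3, was 0.303 ± 0.0322 in the labelled-ISLR libraries and 0.129 ± 0.0112 in labelled-NC libraries, again without overlap and with the same exact permutation p of 0.1. ID4 was higher and ID3 lower in every labelled-ISLR library, so this separation and p followed from the 2 genes. TCF12 itself did not pass (limma adjusted p = 0.343). Of the other relatives, HAND1, a bHLH partner of E proteins, passed as deposited at 36.9 ± 1.52 TPM in the labelled-ISLR libraries and 28.2 ± 1.23 TPM in labelled-NC libraries (limma adjusted p = 0.0022) and not after scaling (limma adjusted p = 0.104), while HAND2, SCRT1, SCRT2, SCX and TCF15 were too low to be tested. Of the 2 relatives tested, 1 was called as deposited and none after scaling, too few to set beside the 45.9% and 38.6% of all genes.

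**Figure D4:**
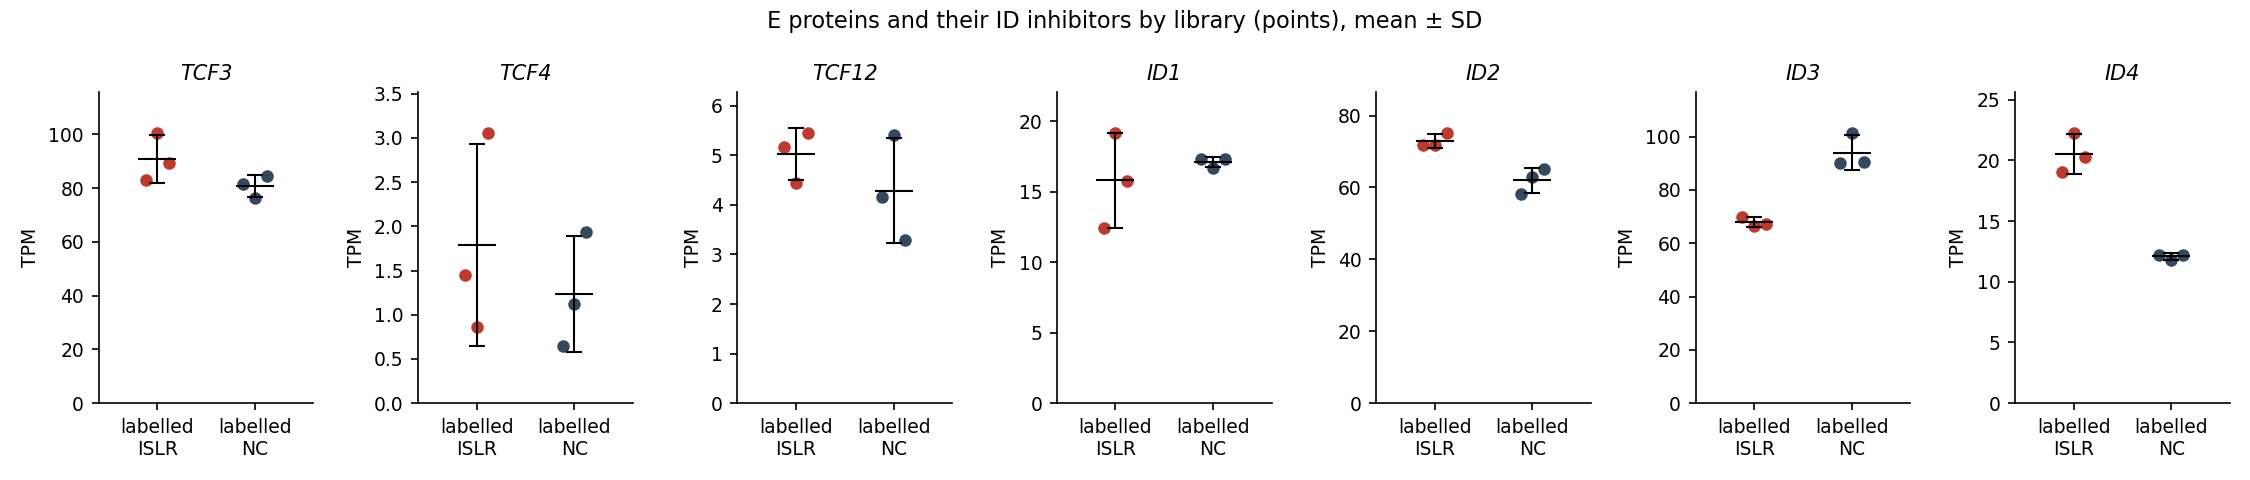
TPM of the E proteins TCF3, TCF4 and TCF12 and of their inhibitors ID1 to ID4 (linear axis from 0), in the 3 labelled-ISLR libraries, left, and the 3 labelled-NC libraries, right, with mean and SD. The groups overlap for the 3 E proteins and ID1, ID3 is lower in the labelled-ISLR libraries, and ID2 and ID4 are higher as deposited, ID2 not after scaling.

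Other transcription factors linked to EMT were called in 3 of the 5 that could be tested, all higher on both scales, beside 38.5% of all genes higher as deposited and 18.2% after scaling. SOX4, a factor of progenitor cells, stood at 54.99, 59.24 and 59.69 TPM in the labelled-ISLR libraries, against 28.90, 26.01 and 29.08 TPM in labelled-NC libraries (log2 difference 1.02, limma adjusted p = 9.43e-05). SOX4 was about 2 times higher, more than any of the 9 factors. FOXC1, a forkhead factor of mesenchyme, was higher as well (log2 difference 0.65, limma adjusted p = 0.000827), while GSC, a homeobox factor of the embryonic organizer, and SOX9 did not pass (limma adjusted p = 0.225 and 0.486). The median log2 difference of the 5 was 0.65 as deposited, beside 0.22 over all genes tested.

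Of the 17 corepressors and chromatin partners of Snail and ZEB proteins, all tested, 12 were higher and 1 was lower as deposited. These calls are 76.5% of the list, beside 45.9% of all genes (38.5% higher and 7.38% lower), and the median log2 difference was 0.3 beside 0.22. After scaling 5 were higher and 2 lower, 41.2% of the list beside 38.6% of all genes, and the median was 0.06 beside 0. CTBP1, the CtBP corepressor bound by ZEB proteins, stood at 93.7 ± 7.32 TPM in the labelled-ISLR libraries and 57.5 ± 3.7 TPM in labelled-NC libraries (SD, n = 3 each, limma adjusted p = 0.000472, and 0.00285 after scaling). Its relative CTBP2 stood at 45.2 ± 0.38 TPM in the labelled-ISLR libraries and 32.2 ± 1.07 TPM in labelled-NC libraries (limma adjusted p = 0.000432, and 0.0081 after scaling). PRMT5, an arginine methyltransferase, was higher too (0.40, limma adjusted p = 0.000401, and 0.16 after scaling, limma adjusted p = 0.0239). HDAC1, a histone deacetylase of the repressor complexes, was lower at 157 ± 1.24 TPM in the labelled-ISLR libraries and 189 ± 1.67 TPM in labelled-NC libraries (limma adjusted p = 0.000513).

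Of 18 regulators of the stability and activity of these factors, 17 were tested, and 8 were higher and none lower as deposited. These are 47.1% of those tested, close to the 45.9% of all genes, and the median log2 difference was 0.38 beside 0.22. After scaling 3 were higher and 3 lower, 35.3% beside 38.6% of all genes, and the median was 0.17 beside 0. FBXL14, an F-box protein that targets Snail for degradation, stood at 2.77, 3.24 and 3.03 TPM in the labelled-ISLR libraries, against 0.96, 1.23 and 1.29 TPM in labelled-NC libraries (0.90, limma adjusted p = 0.00149, and 0.00375 after scaling). BTRC, the F-box protein that recognises phosphorylated Snail, stood at 4.49, 4.29 and 4.61 TPM in the labelled-ISLR libraries, against 2.61, 1.83 and 2.05 TPM in labelled-NC libraries (0.80, limma adjusted p = 0.00236, and 0.00854 after scaling). PRKD1, a kinase known to phosphorylate Snail (0.38, limma adjusted p = 0.00264), and FBXO11, another F-box protein for Snail (0.46, limma adjusted p = 0.00542), passed as deposited but not after scaling (limma adjusted p = 0.143 and 0.0668). Protein levels were not measured.

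Genes that EMT factors are known to switch did not move as a block. Of 26 epithelial junction and marker genes, 18 were tested, 6 were higher and none lower as deposited, and 1 was higher and 3 lower after scaling. The share called was 33.3% as deposited, beside 45.9% of all genes, and 22.2% after scaling, beside 38.6%. CDH1, which encodes E-cadherin, stood at 1.97, 1.85 and 2.88 TPM in the labelled-ISLR libraries, against 1.31, 1.59 and 1.24 TPM in labelled-NC libraries. The groups did not overlap, yet the difference did not pass (log2 difference 0.43, 95% interval 0.06 to 0.81, limma adjusted p = 0.0615, and 0.206 after scaling). EPCAM, an epithelial adhesion protein, averaged 0.967 ± 0.312 TPM in the labelled-ISLR libraries and 1.47 ± 0.179 TPM in labelled-NC libraries, with a limma adjusted p of 0.124 as deposited and 0.0479 after scaling. DSP, which encodes desmoplakin, was higher on both scales, at 8.28 ± 0.135 TPM in the labelled-ISLR libraries and 4.73 ± 0.25 TPM in labelled-NC libraries (limma adjusted p = 0.000822, and 0.00402 after scaling). TJP1, which encodes a tight junction scaffold, passed as deposited (0.62, limma adjusted p = 0.016) and not after scaling (limma adjusted p = 0.068), and KRT18 (0.17, limma adjusted p = 0.0266) gave -0.08 after scaling. Of 10 epithelial transcription and splicing factors, 7 were under 1 TPM in all libraries, and neither of the 2 tested, GRHL1 and KLF5, passed (limma adjusted p = 0.226 and 0.694).

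Of 27 mesenchymal marker genes, 18 were tested, with 6 higher and 1 lower as deposited and 1 higher and 4 lower after scaling. The share called was 38.9% as deposited and 27.8% after scaling, again beside 45.9% and 38.6% of all genes. CDH2, which encodes N-cadherin, stood at 9.21, 8.91 and 9.57 TPM in the labelled-ISLR libraries, against 7.20, 7.16 and 7.10 TPM in labelled-NC libraries. It passed as deposited (0.33, limma adjusted p = 0.011) and not after scaling (0.10, limma adjusted p = 0.294). VIM, the intermediate filament vimentin, was higher as deposited (0.14, limma adjusted p = 0.00233) and lower after scaling (-0.11, limma adjusted p = 0.0081). MMP14, a membrane-bound matrix protease, was higher on both scales, at 9.01 ± 1.75 TPM in the labelled-ISLR libraries and 4.68 ± 0.881 TPM in labelled-NC libraries (limma adjusted p = 0.00667, and 0.0289 after scaling), and ITGB1, an integrin subunit, passed as deposited (0.28, limma adjusted p = 0.00465) and not after scaling (limma adjusted p = 0.625). N-cadherin transcript was more abundant than E-cadherin transcript in all 6 libraries.

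**Figure D5:**
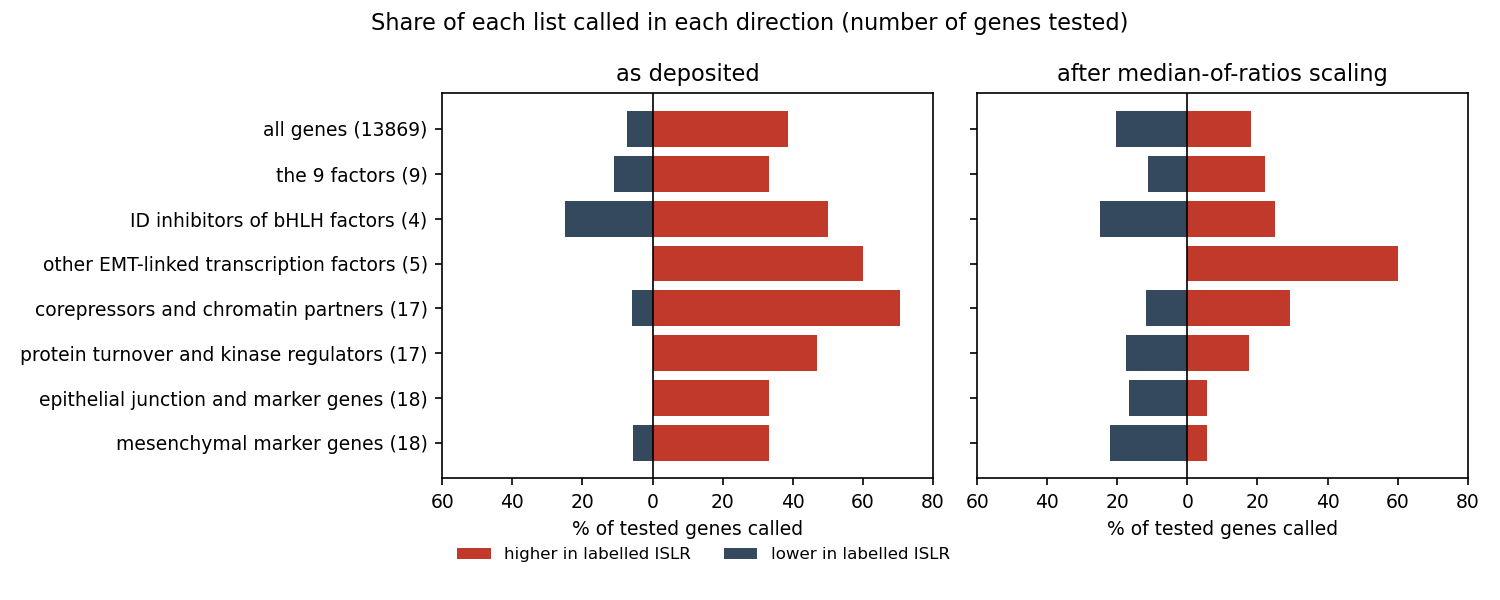
Percentage of tested genes called higher (right of 0) or lower (left of 0) in the labelled-ISLR libraries by limma, for all genes, the 9 factors and 6 lists around them, as deposited and after median-of-ratios scaling; the number tested stands beside each name. For all genes the shares are 38.5% higher and 7.38% lower as deposited, and 18.2% and 20.4% after scaling.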

How the data were processed

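The labels name 6 RNA-seq libraries, and each column was matched to its sample by title. The authors deposited TPM per gene and library, with p-values and adjusted p-values of their own comparison, for which the name of the deposited table gives DESeq2. Per the submitters' processing notes, the tools were HISAT2, Cufflinks and RSEM, given with no role and no version, and the genome was GRCh38.p10. The TPM of the 58884 genes left after 1 blank row summed to 984557 to 987784 per library, so depth, and with it counting error, is unknown.

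The 13869 genes that reached 1 TPM in 3 or more libraries were fitted as log2(TPM + 1) with limma 3.58.1 in R 4.3.3, on group alone, with trend and robust set. The two-sided p-values were adjusted over all tested genes by Benjamini-Hochberg, with a threshold of 0.05. The pseudocount makes a log2 difference understate the change of low genes. The fit was tested on simulated data. Median-of-ratios scaling used the tested genes above 0 in all libraries.

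The 9 members and the lists around them were chosen with earlier results of these data known. Named genes were the 9 members, ISLR, up to 4 genes of each list with the smallest p, CDH1, CDH2, VIM, EPCAM, CTBP1, CTBP2, ID1 to ID4 and the 3 genes most like the member with the smallest p. SOX9, KRT8, PAX8, THY1, PTPRC, MIR200CHG, MIR205HG, ZEB2-AS1, SNAI3-AS1 and the untested HAND2, SCRT1, SCRT2, SCX and TCF15 were named after their values were seen. Some genes that the rule names are not reported here. Gene positions and 3' UTRs are from GENCODE 29, promoter windows and miRNAs from RefSeq. Alternatives were other pseudocounts, filters and scalings, no trend or robust option, a replicate block and leaving out each library, and 2 trend removals added after seeing the data. Ratios within a library were compared by exact permutation in scipy 1.17.1, and figures were drawn with matplotlib 3.10.9.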

Additional observations from a re-analysis of the deposited data

How the results depend on the processing

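SNAI1 and SNAI2 kept their direction and an adjusted p under 0.05 in all 16 alternatives run for each, with log2 differences of -0.79 to -0.39 and 0.47 to 0.82, and TWIST2 did so in all 15 run for it (0.37 to 0.88). Of the 9 factors, 4 were called as deposited and 2 with a filter of 5 TPM, which leaves ZEB1 and TWIST2 untested. Leaving out single libraries gave 3 to 4 calls, not always of the same genes. Without labelled ISLR 1, ZEB1 lost its call (limma adjusted p = 0.0636) and TCF3 gained a call (limma adjusted p = 0.0447). ZEB1 also lost its call with quantile normalization (adjusted p = 0.159) and once the trend on mean expression was also taken out of scaled values (0.192). Among the 9 factors, directions turned only for the 5 that did not pass as deposited. TWIST1 gave -0.12 after scaling, -0.16 with quantile normalization, -0.02 with the length trend also removed and -0.15 with the expression trend also removed, and TCF3 gave -0.08 after scaling and -0.16 with the length trend also removed. Without single libraries SNAI3 lay between -0.11 and 0.12, ZEB2 between -0.22 and 0.07, TWIST1 between -0.02 and 0.32 and TCF4 between -0.03 and 0.54. Among the 45 list genes called as deposited, 6 turned after scaling, of which CHD4, FSTL1 and KDM1A, named after their values were seen, gave -0.09, -0.06 and a value just below 0. Of the list genes named by rule, VIM turned to -0.11 after scaling and -0.10 with the length trend also removed, KRT18 to -0.08 and -0.02, ID2 to -0.01 after scaling, and ITGB1 and NEFL to -0.02 and -0.04 with the length trend removed. The cause was not tested. Over all genes 6370 were called at the 0.05 threshold and 3883 at an adjusted p under 0.01, and leaving out single libraries gave 4891 to 5546. The list genes gave 34 to 39 calls without single libraries. The ISLR transcript kept its direction wherever it was tested (-9.06 to -9.05 without a library labelled ISLR), and without a library labelled NC it does not reach 1 TPM in 3 libraries. The alternatives that remove a trend were chosen after seeing the data. Same-numbered libraries did not deviate together (correlations of 0.02, 0.047 and -0.056 for numbers 1 to 3), and not every library correlated best with its own number. These values gave no sign that the numbers pair the libraries, but cannot settle whether the design did. With the replicate block 5778 genes and 4 of the 9 factors were called, and 41 list genes.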
